A study of Mus musculus with 11 samples.

Results

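The 9 genes described here encode tight junction proteins. In brain endothelium tight junctions are the seals between neighbouring endothelial cells on which the blood-brain barrier rests. The genes are the claudins Cldn5 and Cldn12, the MARVEL-domain proteins Ocln (occludin) and Marveld2 (tricellulin), the immunoglobulin-like adhesion proteins Esam, Jam2 and F11r, and the cytoplasmic plaque proteins Tjp1 (ZO-1) and Cgn (cingulin). They were taken by name, though with earlier results of these data known, and are 9 of the 45809 genes listed in each library. Of these, 8 reached the level needed for testing (at least 1 FPKM in at least 2 libraries), and Cgn did not. FPKM counts fragments relative to transcript length and to all mapped fragments of a library, so genes can be ranked by it within a library.

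RNA bound to ribosomes of endothelial cells was sequenced from adult C57BL/6 mice. All groups carried eGFP-L10a, a green fluorescent ribosomal protein under the VE-cadherin (Cdh5) promoter, and tagged polysomes were pulled down with anti-GFP beads. The groups were healthy brain of wild type mice (n = 3), healthy brain of Eltd1-/- mice (n = 3), GL261 tumour of wild type mice (n = 3) and GL261 tumour of Eltd1-/- mice (n = 2), 11 libraries in all. GL261 is a mouse glioma cell line, injected into the brain. Eltd1, now named Adgrl4, encodes a receptor of the adhesion GPCR family that endothelial cells carry. The Eltd1-/- groups are called knockout below. The protocol names 3 mouse samples a group; of the knockout tumour samples, those beyond the 2 used are not analysed here. The tag reports only cells with an active VE-cadherin promoter, and Cdh5 mRNA itself was lower in tumour. The pull-down also carried RNA of other cells, as described next.

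In a tight junction, claudins form the paracellular seal strands, and Cldn5 is the main claudin of brain endothelium. Occludin sits in the same strands and tricellulin where 3 cells meet. ZO-1 anchors the strands to actin, and adhesion proteins such as JAM-B (Jam2), JAM-A (F11r) and ESAM hold the apposed membranes together. Loss of Cldn5 makes the barrier leaky to small molecules, and vessels of malignant glioma are known to leak.

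Adgrl4 lay between 5.82 and 23.6 FPKM in the 5 knockout libraries and between 27.4 and 192 FPKM in the 6 wild type libraries, without overlap. Summed over 16 endothelial reference genes (Pecam1, Tie1, Tek, Kdr and others, none of them a tight junction gene), the level was 1155 to 1793 FPKM in brain and 266 to 811 FPKM in tumour. All 16 were measured in every comparison, and in the mean of both genotypes 9 fell from brain to tumour and 0 rose. Of all tested genes, 17.6% were called lower and 12.6% higher in that comparison, and the marker counts here are to be read beside these shares. The sum of 10 neuron markers was 4664 to 6379 FPKM in brain and 97.7 to 2888 FPKM in tumour, and 9 of the 10 fell. Summed astrocyte markers went from 946 to 1611 FPKM in brain to 282 to 730.4 FPKM in tumour (5 of 9 fell, 1 rose), and oligodendrocyte markers from 849 to 1103 FPKM to 280 to 859 FPKM (6 of 8 tested fell). The sum of 12 microglia and macrophage markers was 17.4 to 54.5 FPKM in brain and 92.3 to 276 FPKM in tumour, and 7 rose. Markers of mural cells (1 of 7 tested rose), lymphocytes (1 of 2 rose), choroid plexus (2 of 7 fell), platelets (0 of 3 passed) and glioma or neural progenitors (4 of 8 rose, 2 fell) are given for completeness. Cd3e, Folr1 and the platelet genes Gp9, Pf4, Ppbp and Gp6 were listed at 0 in every library. In bulk RNA, fewer cells of a type and less RNA per cell cannot be told apart, and how far these shifts enter the tumour against brain values below was not tested. In wild type tumour replicate 2, 42.7% of tested genes were listed at 0, against 7.79% to 25.7% in the other 10 libraries, and 4.06% of genes were at least 5 FPKM and at least 3 times the highest other tumour library. Results that rest on it are given with and without it.

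**Figure D1:**
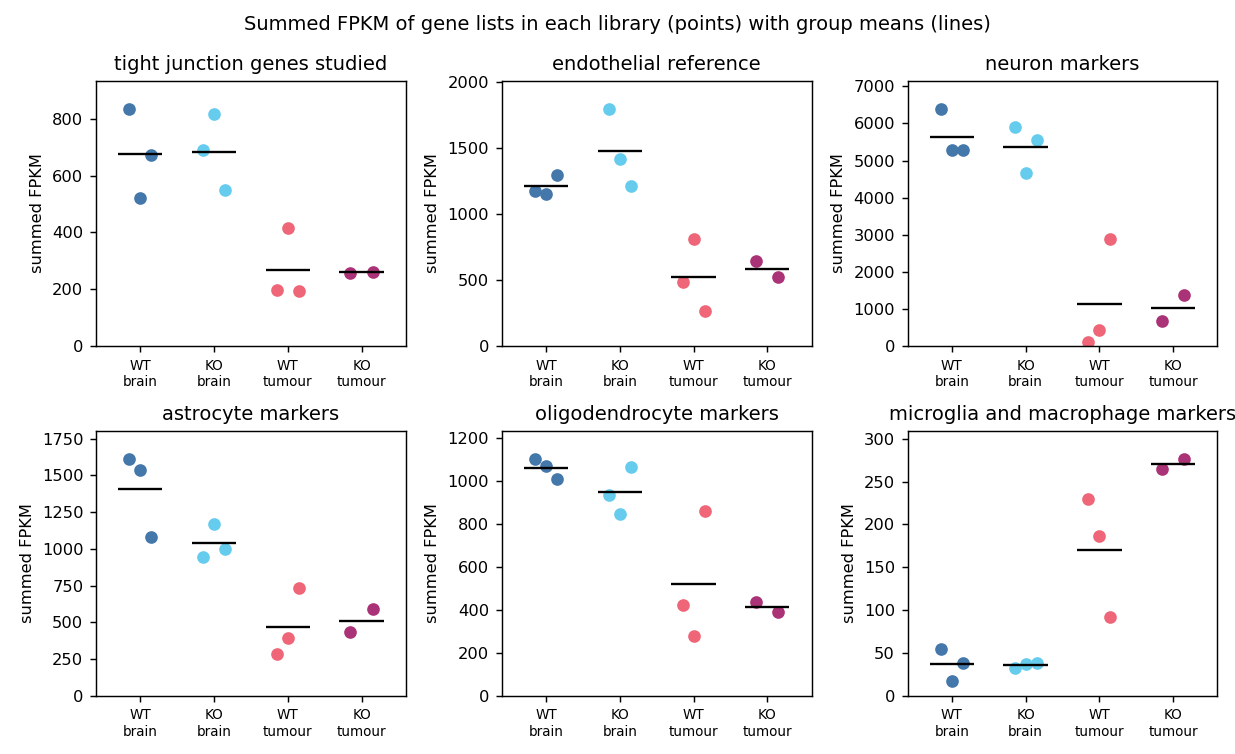
Summed FPKM (y axis, linear, from 0) of 6 gene lists in each library. Points are libraries, lines are group means, and the groups are wild type (WT) and knockout (KO) brain and tumour. The sums for the 9 tight junction genes (522 to 833 FPKM in brain, 194 to 415 FPKM in tumour), the endothelial reference, neurons and astrocytes separate the tissues, and the sum for microglia and macrophages separates them the other way.

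Cldn5 had the highest mean level of the 9 genes in all 4 groups, without overlap with the gene next by mean in any of them. In wild type tumour its range, 75.4 to 136 FPKM, did overlap Ocln and Esam, which reached 118 and 87.5 FPKM. The mean of Cldn5 was 383 ± 59.6 FPKM (SD, n = 3) in wild type brain, 440.0 ± 118 (SD, n = 3) in knockout brain, 96.3 ± 34.5 (SD, n = 3) in wild type tumour and 116 ± 16.9 (SD, n = 2) in knockout tumour. In brain of both genotypes Esam followed, and its range overlapped the next gene, Tjp1 or Ocln. Ocln, Tjp1 and Jam2 came next in brain, and F11r and Cldn12 were lower, at means of 10.0 to 17.3 FPKM. In knockout tumour the order was Cldn5, Esam, Tjp1, Jam2, Ocln, Cldn12, F11r, and among these only Esam and Tjp1 overlapped as neighbours. In wild type tumour every gene from Tjp1 down overlapped the one below it as far as Marveld2. Marveld2, at group means of 0.733 to 1.60 FPKM, and Cgn, at 0 to 0.12 FPKM, were lowest in every group. Cldn5 made up 52.4% to 69.3% of the summed FPKM of the 9 genes in brain libraries and 32.8% to 48.9% in tumour libraries. The share of Tjp1 was 3.9% to 20.0% in brain and 16.001% to 28.4% in tumour.

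**Figure D2:**
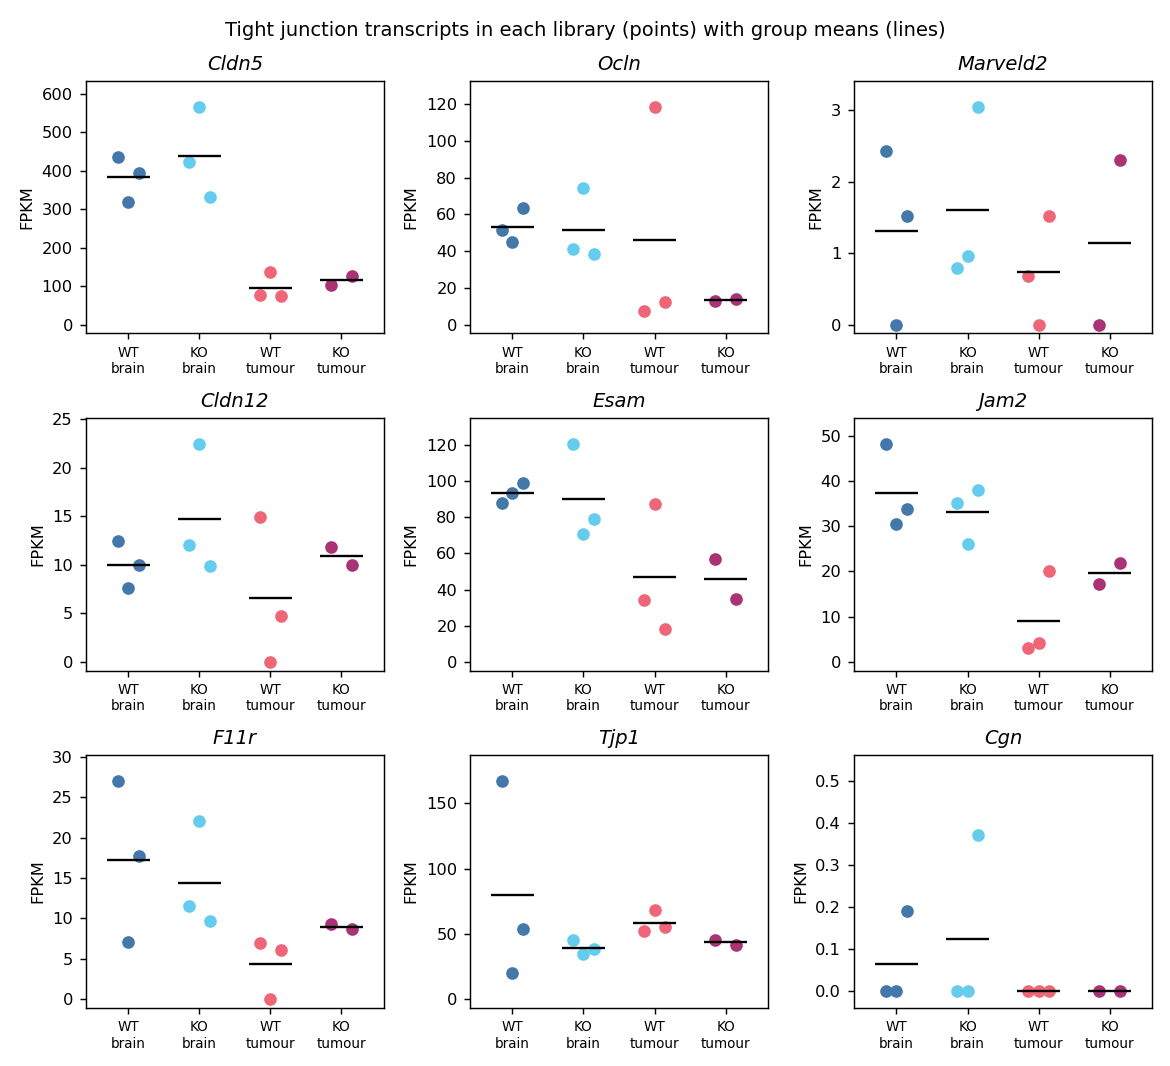
FPKM (y axis, linear, a separate scale for each gene) of the 9 tight junction genes in each of the 11 libraries. Points are libraries and lines are means of wild type (WT) and knockout (KO) brain and tumour. Cldn5 and Jam2 do not overlap between brain and tumour, Ocln has 1 tumour library at 118 FPKM, and Tjp1 has 1 wild type brain library at 167 FPKM.

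The genes lie apart in the genome, apart from Ocln and Marveld2. In the RefSeq annotation of GRCm38.p6, Cldn5 is at chr16:18776847-18778262 and Jam2 at chr16:84774123-84826380. Ocln (chr13:100496504-100552718) and Marveld2 (chr13:100595957-100616971) are 43238 bases apart with 1 predicted gene, Gm8847, between them. Tjp1 is at chr7:65296165-65527850, Esam at chr9:37528089-37538319, F11r at chr1:171437561-171464593, Cgn at chr3:94760069-94787725 and Cldn12 at chr5:5505015-5514976. Promoter windows were found for 7 of the 9 genes. The 250 bases before the start site are shown for Cldn5, the gene with the largest level and a clear tissue difference, and for Tjp1, whose level did not differ detectably between the tissues. Both read 5′ to 3′ on the gene's strand, from RefSeq on GRCm38.p6, and capitals mark the GC box, GGGCGG or its reverse complement CCGCCC.
Cldn5, chr16:18776597-18776846, plus strand: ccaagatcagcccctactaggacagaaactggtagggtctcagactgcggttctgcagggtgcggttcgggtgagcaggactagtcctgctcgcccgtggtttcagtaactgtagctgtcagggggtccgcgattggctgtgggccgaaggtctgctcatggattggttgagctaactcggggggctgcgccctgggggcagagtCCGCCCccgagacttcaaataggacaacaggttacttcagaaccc
Tjp1, chr7:65371245-65371494, minus strand: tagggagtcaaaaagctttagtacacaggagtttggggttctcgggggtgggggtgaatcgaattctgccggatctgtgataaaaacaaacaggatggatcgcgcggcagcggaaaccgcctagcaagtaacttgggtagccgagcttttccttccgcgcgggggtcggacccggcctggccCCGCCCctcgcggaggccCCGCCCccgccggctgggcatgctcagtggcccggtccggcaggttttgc
The Cldn5 window holds 1 GC box, 45 bases before the start site, and the Tjp1 window holds 2, at 68 and 50 bases before it. A GC box occurs in 32.7% of all 32851 windows of this length. Tjp1's window lies within the annotated span of the gene, upstream of a start site inside it. Both strands were also searched for an E-box (CAGGTG, in 17.2% of all windows), a TCF/LEF core (TCAAAG, 13.8%), a SOX core (AACAAT, 9.42%), an ETS core (CCGGAA, 12.03%) and a FOX core (TGTTTA, 12.03%), and none of these letters occur in the 2 windows shown. The windows are 59.6% (Cldn5) and 63.2% (Tjp1) G or C, above the median of 52.4% over all windows.

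Among the claudins, Cldn5 fell about 4-fold from brain to tumour in both genotypes. Its level was 437, 319 and 393 FPKM in wild type brain and 77.3, 136 and 75.4 FPKM in wild type tumour. In knockout mice it was 423, 566 and 331 FPKM in brain and 104 and 128 FPKM in tumour. Every tumour library was below every brain library, which held for 12.3% of all tested genes. The change was -2.02 (log2, SE 0.32, limma's adjusted p = 0.00200) in wild type and -1.89 (SE 0.35, limma's adjusted p = 0.00908) in knockout. Mean FPKM was 3.98-fold lower in wild type tumour and 3.81-fold lower in knockout tumour. Over both genotypes together the fitted change was -1.96 (SE 0.24, limma's adjusted p = 0.000191). Without wild type tumour replicate 2 the wild type change was -2.30 (limma's adjusted p = 0.00138). In knockout, the call was lost without knockout tumour replicate 1 (limma's adjusted p = 0.127) or replicate 2 (0.0617), which leave that group with 1 library.

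Cldn12, a claudin without the PDZ-binding tail by which most others bind ZO-1, did not pass in any comparison. It was at 12.5, 7.58 and 9.99 FPKM in wild type brain and 12.004, 22.4 and 9.90 FPKM in knockout brain. In tumour it was at 14.9, 0 and 4.78 FPKM in wild type and 11.8 and 9.94 FPKM in knockout, so the tissues overlapped in both genotypes. The change was -1.26 (log2, SE 0.85, limma's adjusted p = 0.325) in wild type and -0.33 (limma's adjusted p = 0.874) in knockout. The interval of the mean change over both genotypes, -2.19 to 0.60, leaves room for a fall as large as that of Cldn5. The library at 0 was wild type tumour replicate 2, without which the wild type change was -0.18 (limma's adjusted p = 0.866). In that library every claudin other than Cldn5 was listed at 0.

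Cldn5 accounted for 80.2% to 87.1% of the FPKM summed over 23 claudins in the 6 brain libraries. In tumour the share was 62.6% and 66.8% in 2 wild type libraries, 74.99% and 75.1% in knockout, and 100% in wild type tumour replicate 2. Without that library all tumour shares were below all brain shares. The next claudin was Cldn11, the claudin of myelin, at 7.28% to 16.8% of the sum in brain and 15.7% to 31.3% in the tumour libraries other than that one. Cldn12 held 1.91% to 3.27% in brain and 3.97% to 12.9% in those 4 tumour libraries.

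Of the MARVEL-domain proteins, Ocln was lower in 4 of 5 tumour libraries than in any brain library, and the fifth was the highest of all 11. It was at 51.8, 44.8 and 63.7 FPKM in wild type brain and 41.4, 74.2 and 38.3 FPKM in knockout brain. In tumour it was at 7.73, 118 and 12.6 FPKM in wild type and 13.2 and 13.9 FPKM in knockout. The library at 118 FPKM was wild type tumour replicate 2, which was 8.54 times the highest other tumour library. With it, no comparison of Ocln passed: the change was -1.16 (SE 0.77, limma's adjusted p = 0.323) in wild type, -1.78 (SE 0.87, 0.227) in knockout and -1.47 (SE 0.58, 0.0769) over both. Without it, the change was -2.31 (SE 0.40, limma's adjusted p = 0.00581) in wild type and -2.05 (SE 0.28, 0.000742) over both. In knockout, where the values themselves stay the same, the adjusted p then became 0.0193, since all groups share 1 estimate of the spread.

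Marveld2, the tricellular component, was near the limit of what the files list. It lay between 0 and 3.04 FPKM in brain and between 0 and 2.30 FPKM in tumour, at or above 1 FPKM in 3 of 6 brain and 2 of 5 tumour libraries. Its change over both genotypes was -0.38 (SE 0.51, limma's adjusted p = 0.603). Although it is the nearest of the 9 genes to Ocln in the genome, the library with the highest Ocln listed it at 0.

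Among the adhesion proteins, Jam2 was lower in tumour in all 5 libraries. It was at 48.1, 30.4 and 33.7 FPKM in wild type brain and 35.2, 26.0 and 37.9 FPKM in knockout brain. In tumour it was at 3.11, 4.08 and 20.0 FPKM in wild type and 17.3 and 21.8 FPKM in knockout. All tumour libraries were below all brain libraries, as for Cldn5. Within wild type tumour, replicate 3 stood at the level of the knockout libraries and replicates 1 and 2 far below. That replicate also had the highest neuron marker sum of the tumour libraries, 2888 FPKM, and the part of such RNA in the Jam2 value was not tested.

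Jam2 fell by 2.31 on the log2 scale in wild type (SE 0.58, limma's adjusted p = 0.0183) and by 1.51 over both genotypes (SE 0.43, limma's adjusted p = 0.0215). Its mean FPKM was 4.12-fold lower in wild type tumour than in wild type brain. In knockout the change was -0.72 (SE 0.64, limma's adjusted p = 0.540), with the 2 tumour libraries below the 3 brain libraries. The wild type call was lost without wild type tumour replicate 1 (limma's adjusted p = 0.0639) or wild type brain replicate 1 (0.0600). The call over both genotypes was lost without knockout tumour replicate 1 (limma's adjusted p = 0.0874), knockout tumour replicate 2 (0.0556) or knockout brain replicate 3 (0.0502). Without wild type tumour replicate 2 the change was -2.02 in wild type (limma's adjusted p = 0.0477) and -1.37 over both (0.0333). With the neuron marker level as a covariate the sign turned in all 3 comparisons, to 0.15 (limma's adjusted p = 0.988) in wild type, 0.76 (0.714) in knockout and 0.45 (0.893) over both. Neuron marker levels did not overlap between tumour and brain, so that fit can hardly separate them from tissue. It called 1, 119 and 75 of all 15605 genes in these comparisons.

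Esam, an adhesion protein of endothelium and platelets, lay at 87.8, 93.6 and 98.7 FPKM in wild type brain and 120.4, 71.0 and 78.9 FPKM in knockout brain. In tumour it was at 34.2, 87.5 and 18.4 FPKM in wild type and 57.1 and 34.995 FPKM in knockout. In each genotype all tumour libraries were below all brain libraries but across genotypes they overlapped, since wild type tumour replicate 2 (87.5 FPKM) was above 2 of the knockout brain libraries. Esam fell over both genotypes by 1.11 on the log2 scale (SE 0.37, limma's adjusted p = 0.0402). Its mean FPKM over all tumour libraries was 1.98-fold lower than over all brain libraries. The change was -1.26 (SE 0.49, limma's adjusted p = 0.0927) in wild type and -0.96 (SE 0.55, 0.310) in knockout. Without wild type tumour replicate 2 the change over both genotypes was -1.40 (limma's adjusted p = 0.00370) and that in wild type -1.85 (0.0116). Leaving out any other single library ended the call over both genotypes, at limma's adjusted p from 0.0534 to 0.155. It also ended with a pseudocount of 0.1 (0.0510), no filter (0.0573), upper quartile scaling (0.0879) or no variance trend (0.0671). The 7 platelet markers summed to 0 to 7.96 FPKM in brain and 0 to 9.40 FPKM in tumour, with Gp9, Pf4, Ppbp and Gp6 at 0 in every library.

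F11r, which encodes JAM-A, lay at 27.0, 7.08 and 17.7 FPKM in wild type brain and 11.6, 22.0 and 9.62 FPKM in knockout brain. It was at 6.97, 0 and 6.07 FPKM in wild type tumour and 9.30 and 8.62 FPKM in knockout tumour. In each genotype the tumour libraries were below the brain libraries, but knockout tumour overlapped wild type brain. The change was -2.08 (SE 0.81, limma's adjusted p = 0.0942) in wild type, -0.55 (SE 0.91, 0.763) in knockout and -1.31 (SE 0.61, 0.127) over both, and none passed. The value at 0 was again wild type tumour replicate 2, and without it the wild type change was -1.11 (limma's adjusted p = 0.238).

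Of the plaque proteins, Tjp1 did not differ detectably between brain and tumour. Its level was 167, 20.1 and 53.3 FPKM in wild type brain, 45.0, 34.3 and 38.3 FPKM in knockout brain, 52.3, 68.4 and 54.95 FPKM in wild type tumour and 44.9 and 41.7 FPKM in knockout tumour. The tumour libraries all lay inside the brain range. The wild type brain libraries spread most, from 20.1 to 167 FPKM, and the highest was 3.13 times the next. The change was 0.04 (SE 0.59, limma's adjusted p = 0.978) in wild type, 0.15 (SE 0.65, 0.924) in knockout and 0.09 (SE 0.44, 0.896) over both. The interval of the last, -0.87 to 1.05, does not reach the fall seen for Cldn5. Without the highest brain library the change over both was 0.48 (limma's adjusted p = 0.266). ZO-1 also occurs at adherens and gap junctions, and the part of other cells' RNA in the Tjp1 value was not tested.

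Cgn, which links the plaque to the actin cytoskeleton in epithelia, was close to absent from the files' lists. It was at 0 in all 5 tumour libraries and in 4 of 6 brain libraries, and at 0.19 and 0.37 FPKM in the other brain libraries. It was not tested. Its paralog Cgnl1 (paracingulin) was measurable, at group means of 2.90 to 27.1 FPKM.

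Counted over the 8 tested genes, 2 (Cldn5 and Jam2) were called lower in wild type tumour than in wild type brain and 0 higher, where 11.7% of all tested genes were called lower and 7.70% higher. In knockout, 1 of 8 (Cldn5) was called lower and 0 higher, where 2.29% of all genes were lower and 4.81% higher. Over both genotypes, 3 of 8 (Cldn5, Jam2 and Esam) were called lower and 0 higher, where 17.6% of all genes were lower and 12.6% higher. Without wild type tumour replicate 2 the counts were 4 (Ocln and Esam in addition), 2 (Ocln in addition) and 4 (Ocln in addition), all lower, where 1354, 920 and 2866 of all 15550 genes then tested were called lower (8.71%, 5.92% and 18.4%). The median change of the 8 genes was -1.26 in wild type, -0.63 in knockout and -1.21 over both, on the log2 scale. Over all 15605 tested genes it was -0.26, -0.18 and -0.25. In the direction of the estimates, 7 of 8 were below 0 in each of the 3 comparisons, with Tjp1 the exception. After centring on endothelial genes, given further on, 3, 2 and 3 of 8 were below 0. The split of all calls in wild type was 39.7% higher as deposited and 52.9% higher with each library scaled by its upper quartile, and the genes of the 8 that were called there stayed Cldn5 and Jam2. Groups without overlap, tumour below brain, were found for 4 genes in wild type (Cldn5, Esam, Jam2, F11r; 19.8% of all genes). In knockout they were found for 5 (Ocln, Cldn5, Esam, Jam2, F11r; 28.6% of all genes, with 2 against 3 libraries).

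**Figure D3:**
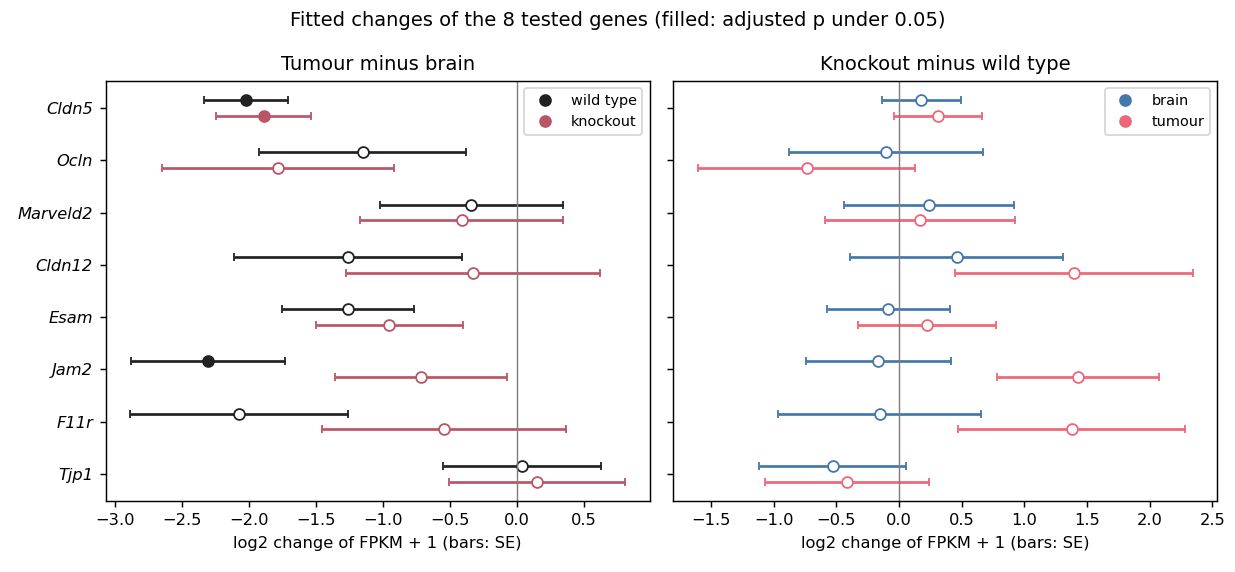
Fitted log2 change of FPKM + 1 (x axis) for the 8 tested genes, tumour minus brain on the left and knockout minus wild type on the right. Points are estimates, bars are SE, and filled points have an adjusted p under 0.05. Filled points are Cldn5 in both genotypes and Jam2 in wild type. All genotype points are open.

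Between genotypes no tight junction gene passed in either tissue. In tumour 0 of 8 were called knockout against wild type (0.0192% of all genes were), and in brain 0 of 8 (0.00641%). For the difference between the 2 genotype effects the count was 0 of 8 (0.00641%), and for the mean over both tissues 0 of 8 (0.00641%). At an unadjusted p under 0.05 there was 1 case, Jam2 in tumour, where 3.11% of all genes reached that level. For Cldn5 the difference was 0.31 in tumour (95% interval -0.46 to 1.08) and 0.18 in brain (-0.51 to 0.87). The interval in brain stays within 1 log2 unit on either side, and that in tumour does not. Ocln differed by -0.74 in tumour (-2.63 to 1.16) and Esam by 0.22 (-0.98 to 1.42). Without wild type tumour replicate 2 these differences were 0.42 for Ocln, with the sign turned, and 0.81 for Esam. The widest intervals in tumour were those of Cldn12 (1.39, -0.69 to 3.47) and F11r (1.38, -0.61 to 3.36). For both, replicate 2 of wild type tumour gave 0 FPKM. Leaving that library out lowered the differences to 0.31 (Cldn12) and 0.41 (F11r).

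Jam2 was 1.43 higher in knockout than in wild type tumour on the log2 scale (SE 0.64, unadjusted p = 0.0479, limma's adjusted p = 1). The groups overlapped, since wild type tumour replicate 3 (20.0 FPKM) lay between the 2 knockout libraries. The difference of the genotype effects for Jam2 was 1.59 (SE 0.87, interval -0.30 to 3.48, limma's adjusted p = 1). Its fall in wild type and the value in knockout were thus not shown to differ. F11r in knockout tumour (8.62 and 9.30 FPKM) was above all wild type tumour libraries, an arrangement found for 10.8% of all genes. Tjp1 in knockout tumour was below all wild type tumour libraries, as for 4.61% of all genes.

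The comparison with other endothelial genes asks whether the tight junction genes moved apart from the cells that carry them. Each library was centred on its mean log2 level over the 16 reference genes, which was 3.51 to 4.47 in tumour and 5.21 to 5.94 in brain. Centred so, the median of all tested genes moved from -0.25 to 1.11 over both genotypes, and changes are read against that shift. Cldn5 remained below 0, at -0.59 (SE 0.25, interval -1.14 to -0.04, limma's adjusted p = 0.0761), and was no longer called. Jam2 (-0.14) and Ocln (-0.10) also stayed below 0. Esam (0.26), F11r (0.06), Cldn12 (0.57) and Marveld2 (0.99) turned from below to above 0, and none of these 6 was called. Tjp1 was higher in tumour by 1.46 (SE 0.48, limma's adjusted p = 0.0258), and it alone of the 8 was called, where 43.1% of all genes were called higher and 1.68% lower. With the median of the reference genes in place of the mean it was 1.36 and not called (limma's adjusted p = 0.0601). In wild type and in knockout separately, 0 of 8 were called after centring, where 33.4% and 21.1% of all genes were called higher and 1.04% and 0.186% lower.

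By library, Cldn5 relative to the reference was 2.79 to 3.56 in brain and 2.103 to 2.98 in tumour on the log2 scale, so the tissues overlapped. For Tjp1 the relative level was -1.05 to 2.18 in brain and 0.99 to 2.30 in tumour. Its overlap came from wild type brain replicate 1, the library at 167 FPKM, and the other 5 brain libraries were at or below 0.21. With the neuron marker level as a covariate, 0 of 8 genes were called in each of the 3 tumour against brain comparisons. Cldn5 then had a change of -2.17 over both genotypes (limma's adjusted p = 0.0830), and in that fit 75 of the 15605 genes were called.

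**Figure D4:**
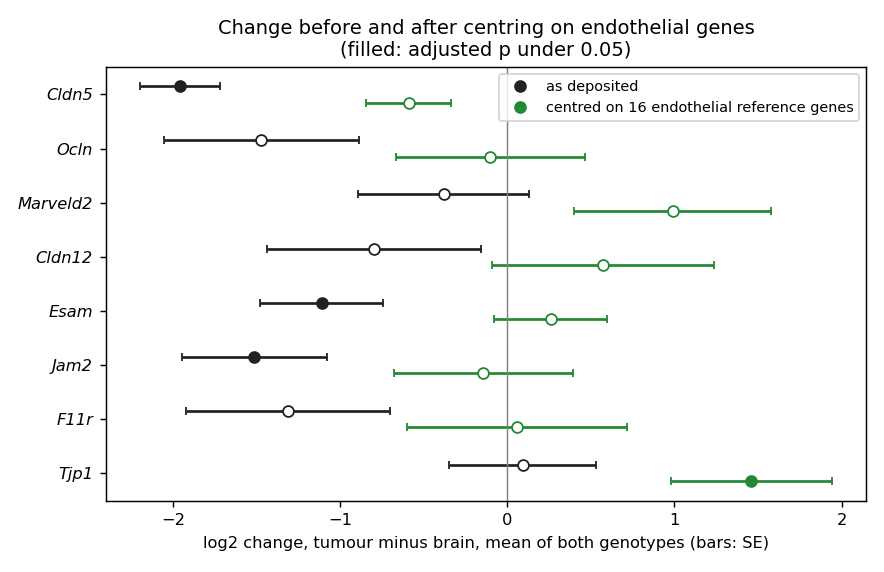
Log2 change of the 8 tested genes between tumour and brain, mean of both genotypes (x axis), as deposited and after centring each library on 16 endothelial reference genes. Points are estimates, bars are SE, and filled points have an adjusted p under 0.05. Cldn5 moves from -1.96 to -0.59, Jam2 from -1.51 to -0.14, Esam moves from -1.11 to 0.26, and Tjp1 moves from 0.09 to 1.46. Ocln stays below 0, and F11r, Cldn12 and Marveld2, like Esam, turn from below to above 0.

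Other junction genes were taken from 4 lists drawn up by protein role. Their counts are set beside the 17.6% of all tested genes that were called lower and the 12.6% called higher over both genotypes. In wild type these shares were 11.7% and 7.70%, and in knockout 2.29% and 4.81%. Of 22 other claudins measured, 10 were listed at 0 in every library and 6 could be tested. Over both genotypes 1 of the 6 fell and 0 rose: Cldn10, at 1.14 to 15.2 FPKM in brain and 0 to 2.26 FPKM in tumour (-1.85, SE 0.60, limma's adjusted p = 0.0368). After centring on the reference genes it was at -0.48 and not called. In wild type and in knockout 0 of 6 passed. The median of the 6 over both genotypes was -1.08. A count of 1 in 6 is near the 17.6% of all genes called lower and is no result about the claudins as a list.

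Of 13 other tight junction membrane proteins, 7 could be tested, and over both genotypes 3 fell and 1 rose, against 17.6% and 12.6% of all genes. Lsr, the angulin that recruits tricellulin to tricellular contacts, fell by 2.08 (SE 0.32, limma's adjusted p = 0.000935), from 33.3 to 65.8 FPKM in brain to 6.05 to 14.5 FPKM in tumour. It was also called in wild type (-2.09) and in knockout (-2.08), the only gene of this list called in both. Ildr2, a further angulin, fell by 2.17 and Igsf5 by 2.72 over both genotypes. Jam3, which encodes JAM-C, rose by 1.71 (SE 0.41, limma's adjusted p = 0.00891). It went from 13.3 to 27.4 FPKM in brain to 22.2 to 107 FPKM in tumour, opposite in sign to Jam2. Centring on the reference genes adds the same upward shift to every gene in this comparison, so it could not turn a rise. After that centring Jam3 was at 3.08, while Lsr (-0.71), Ildr2 (-0.80) and Igsf5 (-1.35) stayed below 0 and were no longer called.

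Of 29 scaffold and polarity genes, all tested, 5 fell and 3 rose over both genotypes, and their median was 0.02. Both counts are near the 17.6% of all genes called lower and 12.6% called higher, and are no result about the list as a whole. Magi2 (-2.86), Lin7a (-2.66), Tiam1 (-1.44) and Magi3 (-1.20) were the lowest in p among those that fell, although Magi3 turned to 0.17 after centring on the reference genes. Magi2 and Lin7a are also synaptic scaffold genes, and the neuron marker sum fell in the same libraries. The part of neuronal RNA in their values was not tested. Amotl2, an angiomotin that links junctions to actin in endothelium, rose by 1.96 (SE 0.52, limma's adjusted p = 0.0157), from 8.88 to 85.3 FPKM in brain to 112 to 275 FPKM in tumour. Sympk (1.35) and Ybx3 (0.79), both with nuclear roles as well, also rose. In wild type alone 3 fell and 2 rose, near the 11.7% and 7.70% of all genes called there. One that rose there was Tjp3 (ZO-3), listed at 0 in all 3 wild type brain libraries and at 1.41 to 5.44 FPKM in wild type tumour. In knockout 0 of 29 passed.

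The 13 adherens junction genes split, with 4 lower and 4 higher over both genotypes, against 17.6% and 12.6% of all genes, and a median of -0.58. Ptprb, the endothelial phosphatase VE-PTP that binds VE-cadherin, fell by 2.88 (limma's adjusted p = 0.00174), and it alone of this list was still called lower after centring on the reference genes (-1.51, limma's adjusted p = 0.0361). Cdh5 (VE-cadherin) fell by 1.33 from 25.8 to 56.4 FPKM in brain to 4.28 to 20.2 FPKM in tumour. It is itself 1 of the 16 reference genes and lay at 0.04 after centring. Pvrl1 (nectin-1) fell by 2.07 and Pkp4 (plakophilin-4) by 1.02, and Pkp4 turned to 0.34 after centring. Ctnnd1 (p120-catenin), which holds cadherins at the membrane, rose by 2.07 from 3.31 to 39.9 FPKM in brain to 57.5 to 89.2 FPKM in tumour. Plekha7 (2.13), Pvrl2 (nectin-2, 2.09) and Ctnna1 (alpha-catenin, 0.70) rose as well. Centring adds the same upward shift to every gene in this comparison, so it could not turn these rises. In wild type 3 fell and 2 rose, and in knockout Pkp4 fell by 1.58 and Pvrl2 rose by 3.09. No gene of the 4 lists was called in a genotype comparison.

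**Figure D5:**
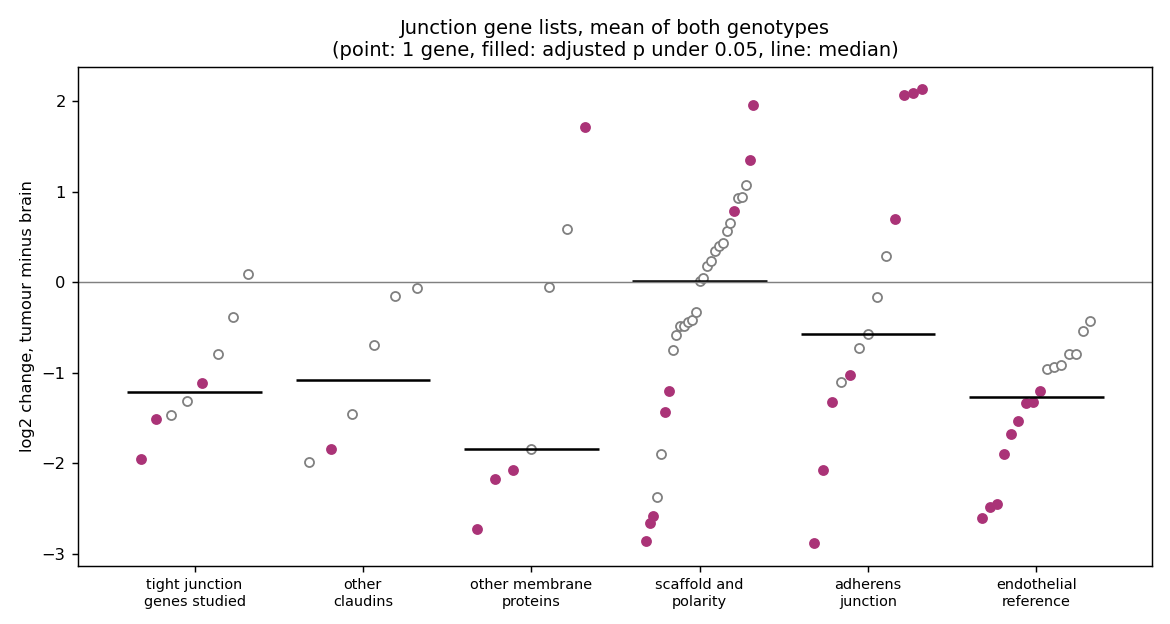
Log2 change between tumour and brain, mean of both genotypes (y axis), for the tested genes of 6 lists in order of their change. Each point is a gene, filled points have an adjusted p under 0.05, and lines are list medians. The 8 tight junction genes (median -1.21) lie near the 16 endothelial reference genes (median -1.27), and the scaffold and adherens lists spread to both sides of 0.

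Genes of like pattern were sought by the root mean square difference of log2 levels over the 11 libraries, each gene centred on its own mean over the groups, among 8169 genes with a mean of at least 10 FPKM. For Cldn5 they were Arl6ip5 (0.24), Lef1 (0.26), Tspan13 (0.26), Slc6a6 (0.26) and Tsc22d1 (0.29). Lef1, a transcription factor of the Wnt pathway, had means of 66.4 and 77.1 FPKM in wild type and knockout brain and 17.1 and 18.9 FPKM in wild type and knockout tumour. Slc6a6 encodes the taurine transporter. For Esam the nearest were Atox1 (0.16), Kdr (0.26) and Egfl7 (0.27), of which the last 2 are endothelial reference genes. For Ocln they were Heg1 (0.31), Adarb1 (0.32) and Pde4d (0.44), and for Jam2 Sort1 (0.22), Dkk3 (0.31) and Fam134a (0.36). The Ocln match takes in its high value in wild type tumour replicate 2. The matches of F11r, Cldn12 and Marveld2, given next, take in their values of 0 in that library. The search was not repeated without it. F11r was nearest to Cyhr1 (0.34), Sox7 (0.35) and Stx8 (0.37), and Cldn12 to Slc9a8 (0.33), Fads2 (0.40) and Csrp2 (0.41). Tjp1 was nearest to Fiz1 (0.37), Ppil2 (0.37) and Nfyc (0.38), and Marveld2 to Rbmx (0.29), Fry (0.33) and Cdk5 (0.41).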

How the data were processed

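RNA of ribosomes pulled down through eGFP-L10a was measured in 11 libraries in 4 groups by tissue and genotype. Each file gives FPKM values, which the authors deposited without counts, per the file headers. The programs TopHat2 2.1.1, Cufflinks 2.2.1 and the build GRCm38 are named per the submitters' processing notes. What each did, the gene models used and any strand setting: not given in the sources used here. The kit preserved strand, per the labels' protocols. Each library listed 46073 entries. The 472 entries of 208 repeated symbols were summed, which left 45809 genes. Depth is unknown: low values were searched for steps of whole reads, and in pairs of libraries the commonest ratio held 0.324% to 8.00% of low genes (tolerance 0.001 in log2). Exact zeros can be failed estimates, so genes are given as listed at 0.

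Tests used log2(FPKM + 1) as deposited and covered 15605 genes, those reaching 1 FPKM in 2 or more libraries. Changes of weakly expressed genes are understated on that scale. Group means, 4 in all, were fitted with limma 3.58.1 (R 4.3.3) to all 11 libraries (7 residual degrees of freedom, variance trend), so all groups share 1 estimate of the spread. Tests were two-sided, with Benjamini-Hochberg adjustment over all tested genes of a comparison and a threshold of 0.05, and intervals are 95%. The 7 comparisons were tissue in each genotype, genotype in each tissue, their difference, and the means of the tissue and of the genotype effects. Those that share libraries are not independent. Replicates are separate mouse samples. No batch is given in the labels or files.

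The 9 genes and all lists were chosen with earlier results of these data known. All 9 are named throughout. From each of the 4 other junction lists, up to 4 called genes a direction were named by smallest p. Marker lists are given by count and sum. The alternatives were pseudocounts of 0.1 and 0.5, no filter or 5 FPKM, upper quartile, quantile or common-sum scaling, centring on endothelial genes, no or a robust variance trend, library weights, the highest of repeated entries, a neuron covariate, only the groups compared, and libraries left out. Centring on the median of the endothelial genes was chosen after seeing the data. On simulated data, changes of 2 and 3 log2 units were recovered for 19.4% and 50.0% of genes in wild type tissue, 5.97% and 25.8% in knockout tissue, and 43.3% and 68.2% over both genotypes. For genotype in tumour they were recovered for 7.46% and 25.8%, and in brain for 10.4% and 31.8%. Each simulation changed 67 genes by 1, 67 by 2 and 66 by 3 log2 units among 15605. That is far fewer than were called between the tissues. The adjusted p depends on how many genes change, so the tissue rates are not those of the real tissue comparisons. The simulated noise was normal, with the same spread for a gene in all groups, and did not model libraries with many zeros. The genotype rates therefore need not hold for the real genotype comparisons either. Promoter windows and positions come from RefSeq tables of GRCm38.p6.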

Additional observations from a re-analysis of the deposited data

How the results depend on the processing

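Values below are counts of the 8 tested tight junction genes called between tumour and brain, which were 2 in wild type, 1 in knockout and 3 over both genotypes. Centring on the mean of the endothelial reference genes gave 0, 0 and 1, and centring on their median, chosen after seeing the data, gave 0, 0 and 0. The neuron covariate gave 0, 0 and 0, in a fit that called 1 gene of 15605 in wild type. Library weights gave 4 in wild type and 2 in knockout, while the calls over all 15605 genes went from 3024 to 4930 and from 1107 to 4126. Fits to only the groups compared gave 1 and 2, with 1090 of 14165 and 3258 of 14420 genes called. A fit with neither replicate 2 nor replicate 3 of wild type tumour gave 4 and 2, with 2518 and 2756 of 15392 genes called. Leaving out 1 library at a time gave 1 to 4 in wild type, 0 to 2 in knockout and 1 to 4 over both. Every genotype count was 0 under all settings. Cldn5 stayed below 0 in all tumour against brain settings, from -2.30 to -0.56 in wild type. Among values called or at an unadjusted p under 0.05, Esam turned sign, to 0.20 in wild type and 0.26 over both under the mean of the reference genes and to 0.13 and 0.16 under their median. Jam2 turned under the neuron covariate, to 0.15 in wild type and 0.45 over both. Among the other values, the mean of the reference genes turned Ocln, Cldn12 and Marveld2 in wild type, Esam, Jam2, F11r, Cldn12 and Marveld2 in knockout and F11r, Cldn12 and Marveld2 over both, and the neuron covariate turned Jam2 (to 0.76), F11r and Marveld2 in knockout and Marveld2 in wild type and over both. The cause was not tested. Of 1481 single-gene values under the settings, 1425 kept their call or stayed uncalled (110 of the uncalled turned sign). A further 36 lost a call with the sign kept, and 14 gained one. The remaining 6 are the sign turns of Esam in wild type and over both and of Jam2 in wild type and over both, named first above. Of these, the values of Esam over both genotypes and of Jam2 lost their call as well. The other pseudocounts, filters, scalings and trend settings gave 2 in wild type and 1 in knockout. Over both they gave 3, or 2 (Cldn5 and Jam2, without Esam) under a pseudocount of 0.1, no filter, upper quartile scaling or no variance trend. No paired analysis was possible because replicate numbers only name the samples in accession order. Read depth is unknown, and the number of libraries, 2 or 3 a group, limits the precision.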

Other observations

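Marveld3, the third MARVEL-domain protein of tight junctions, was at 0 in all 5 tumour libraries and at group means of 0.08 and 0.17 FPKM in brain. Adgrl4, the targeted gene, was at 192 FPKM in wild type tumour replicate 2, the library with the highest Ocln, and at 45.0 and 27.4 FPKM in the other wild type tumour libraries.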
